A study of Mus musculus with 15 samples.

Results

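TCR alpha chain CDR3 loops that end in TNTGKLT, the end encoded by the mouse joining segment TRAJ27, or in GNTGKLI, the end encoded by TRAJ37, were taken from 15 libraries of mouse CD8+ T cells. They were chosen by the last 7 residues of the peptide alone, without regard to reads. The rule found 6268 of 92219 distinct CDR3s, 3348 with the TRAJ27 end and 2920 with the TRAJ37 end. All mice were C57BL/6 males with the TCRbtg genotype, a transgenic TCR beta chain that is the same in every T cell, so the alpha chain is what varies between receptors. Tumour libraries (n = 5) came from prostate tumours of TCRbtg TRAMP+/- mice aged 27 weeks, sorted as CD8b+ CD4neg with no gate on CD44 or CD122. TRAMP is a transgene that causes prostate cancer. MP (memory-phenotype) libraries (n = 5; CD8b+ CD4neg CD44hi CD122+) and Naive libraries (n = 5; CD8b+ CD4neg CD44lo CD122neg) came from spleen and lymph nodes, pooled, of TCRbtg mice aged 9 weeks. Tumour thus differs from MP and Naive in tissue, age, genotype and sort gate, and the parts of these in any Tumour difference cannot be told apart. By the labels the Naive and MP cells came from 5 mice, and which Naive and MP libraries share a mouse is not said. The tests of MP against Naive treat these libraries as unpaired.

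An alpha chain CDR3 is made in the thymus when a variable (TRAV) segment is cut and joined to a joining (TRAJ) segment, with bases trimmed and added at the seam. The start of the loop therefore comes from the TRAV segment, the middle from the seam, and the end from the TRAJ segment. The mouse has many TRAJ segments in a row, and rearrangement can run from one to a later one. TRAJ27, TRAJ37 and TRAJ52 encode closely similar ends around the core NTGKL, so loops of these segments can differ by as little as the residues beside the core. TRAJ52 lies at position 10, TRAJ37 at position 25 and TRAJ27 at position 35 of the 60 segments in the RefSeq order on chromosome 14 (GRCm38.p6). CDR3s that carry mostly germline residues arise often and recur between individuals.

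The most abundant loop of each end in each library is spelled out here. Each is written as in the lists, which leave out the conserved residues at both sides of the loop, with the stem (all residues before the end) first and the 7 residues of the end last. Loops of 12 residues that start AAS, which recur below, are named by their stem and segment: AASGA/TRAJ27 is AASGA followed by the TRAJ27 end, and AASWA/TRAJ37 is AASWA followed by the TRAJ37 end. All other loops are written whole. One of them, that of the TRAJ37 end in Tumour 4, is named after its value was seen.
Tumour 1, TRAJ27 end: AASRS/TRAJ27
Tumour 2, TRAJ27 end: ALHTNTGKLT
Tumour 3, TRAJ27 end: AASAT/TRAJ27
Tumour 4 and Tumour 5, TRAJ27 end: AASAC/TRAJ27
MP 1 to MP 5, TRAJ27 end: AASGA/TRAJ27
Naive 1 to Naive 5, TRAJ27 end: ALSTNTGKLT
Tumour 1, TRAJ37 end: VLGERAGNTGKLI
Tumour 2, TRAJ37 end: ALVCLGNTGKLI
Tumour 3 and MP 5, TRAJ37 end: ALIGNTGKLI
Tumour 4, TRAJ37 end: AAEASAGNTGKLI
Tumour 5, TRAJ37 end: AIEEWTGNTGKLI
MP 1, TRAJ37 end: AASWA/TRAJ37
MP 2 to MP 4, TRAJ37 end: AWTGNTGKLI
Naive 1 to Naive 5, TRAJ37 end: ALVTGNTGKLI
In Naive libraries 1 loop led each end in every mouse, and in MP libraries 1 loop led the TRAJ27 end in every mouse. In tumours the leading TRAJ37 loop differed in all 5 libraries.

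Total reads lay between 627205 and 943699 in Tumour, 574484 and 881988 in MP, and 547665 and 702663 in Naive libraries. The lowest listed count was 2 reads. MP 1 and MP 5 stood apart from the other MP libraries, with 12401 and 13950 distinct CDR3s against 2216 to 3392 in MP 2 to MP 4. The files hold no marker genes, so the labelled cell types could not be checked against them. Reads of the invariant iNKT CDR3 numbered 0 in Tumour, 0 to 5 per MP and 0 to 2 per Naive library, and those of the MAIT CDR3 0 to 60 per Tumour, 0 to 12 per MP and 33 to 101 per Naive library.

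Both ends took a smaller share of reads in MP than in Naive libraries. The TRAJ27 end took 1.94, 1.98, 1.46, 1.63 and 1.88% of the reads of MP 1 to 5, against 2.76, 3.13, 2.94, 2.53 and 2.59% of Naive 1 to 5. The TRAJ37 end took 1.57, 1.24, 1.71, 1.90 and 1.34% of MP reads, against 3.27, 3.30, 3.25, 3.18 and 3.31% of Naive reads. For neither end did an MP library reach the lowest Naive library, and the TRAJ37 share varied little between Naive mice. The differences were -1.01 percentage points for TRAJ27 and -1.71 for TRAJ37, each with p = 0.0119 by the exact two-sided permutation test, adjusted over 72 ends of 7 residues. Of those 72 ends, 47.2% were called lower in MP, so a lower share was common. The TRAJ52 end ANTGKLT, which shares the core NTGKLT with TRAJ27, went the other way, at 5.89 ± 1.48% of MP and 1.57 ± 0.217% of Naive reads (SD, n = 5 each; adjusted exact permutation p = 0.0119), beside 26.4% of ends called higher. In bulk RNA, fewer cells with a loop and less of its RNA per cell cannot be told apart.

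In tumours the TRAJ37 end was lower and the TRAJ27 end varied between libraries. The TRAJ37 end took 1.08, 0.760, 0.182, 0.488 and 0.451% of the reads of Tumour 1 to 5, every one under the lowest MP and Naive library. Its difference was -0.96 percentage points from MP (adjusted exact permutation p = 0.0248) and -2.67 from Naive (0.0260), where 29.2% and 30.6% of the 72 ends were called lower. The TRAJ27 end took 3.57, 3.12, 1.07, 0.620 and 1.96% of Tumour reads. Tumour 1 lay above the Naive range, Tumour 2 within it, and Tumour 3 and Tumour 4 below the MP range. Neither the difference from MP, 0.29 points (adjusted exact permutation p = 0.775), nor that from Naive, -0.72 points (0.359), passed the test, where 6.94% of ends were called higher than in MP, and 30.6% lower and 4.17% higher than in Naive. The TRAJ27 result turned on which loops were counted. Without the most abundant TRAJ27 loop of each library its difference from Naive was -1.45 points (adjusted exact permutation p = 0.0248). With an end of 8 residues, which keeps only loops with the germline residue N before the end, it was -0.71 from MP (adjusted exact permutation p = 0.0190) and -1.22 from Naive (0.0175). With 1 library left out the smallest exact p is 0.0159, and where a call below holds only with all libraries, the values without 1 library stand beside it. The TRAJ37 difference of Tumour from Naive kept its size without Naive 1, Naive 3 or Naive 5, at -2.68 to -2.66 points, with an adjusted exact permutation p of 0.0519 each.

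**Figure D1:**
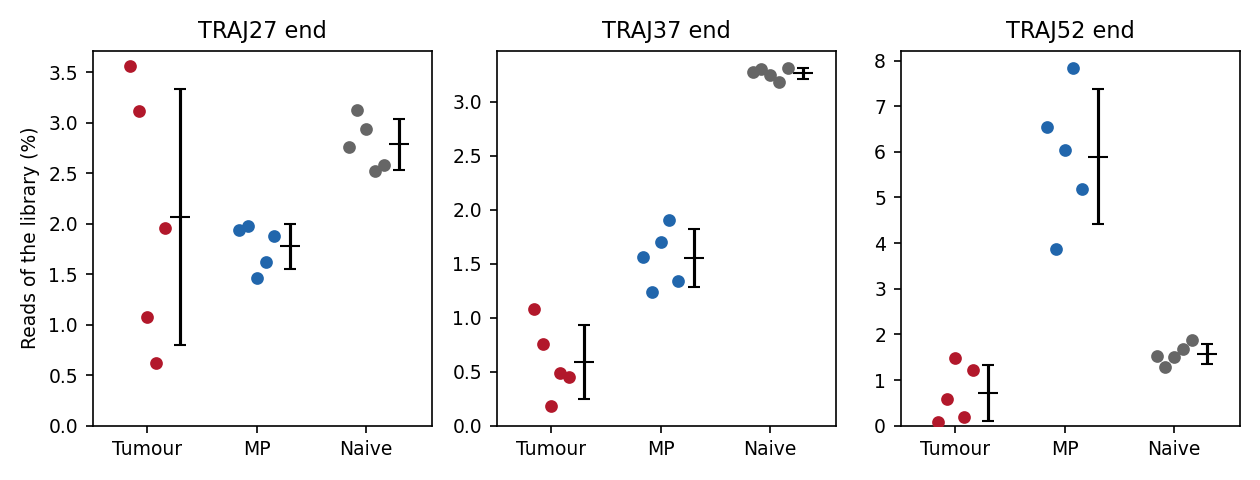
Share of each library's reads (%, linear axes of different range) in CDR3s with the TRAJ27, TRAJ37 and TRAJ52 end, 1 point per library, with the mean and SD of each group (n = 5) beside the points. The TRAJ37 shares fall in 3 separate bands, Tumour at 0.182 to 1.08%, MP at 1.24 to 1.90% and Naive at 3.18 to 3.31%, whereas the TRAJ27 shares of tumours span those of the other groups.

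The balance between the ends, as log2 of TRAJ37 over TRAJ27 reads within a library, compares them free of the rest of the repertoire. It was -1.72, -2.04, -2.56, -0.34 and -2.12 in Tumour, -0.31, -0.67, 0.22, 0.23 and -0.49 in MP, and 0.25, 0.08, 0.14, 0.33 and 0.36 in Naive libraries. TRAJ27 reads outnumbered TRAJ37 reads in all 5 tumours, while TRAJ37 reads were the more numerous in all 5 Naive libraries. The balance was lower in Tumour than in MP by -1.55 (adjusted exact permutation p = 0.0357 over 3 comparisons) and lower than in Naive by -1.99 (0.0238). Without Tumour 1, 2, 3 or 5 or MP 1 the difference from MP was -1.58 to -1.35, with an adjusted exact permutation p of 0.0714. With ends of 8 residues the sign turned, to 2.70 against MP and 1.78 against Naive (adjusted exact permutation p = 0.294 each). The difference of MP from Naive was -0.44 (adjusted exact permutation p = 0.0794) and did not pass.

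Counted by distinct CDR3, so that each loop weighs the same, both ends were lower in Tumour than in Naive. The TRAJ27 end made up 2.19 ± 0.814% of the distinct CDR3s of a Tumour library, 3.49 ± 0.782% in MP and 4.13 ± 0.273% in Naive (SD, n = 5 each). The TRAJ37 end made up 1.64 ± 0.418% in Tumour, 2.62 ± 0.496% in MP and 3.44 ± 0.224% in Naive. Against Naive, the Tumour shares were lower for TRAJ27 by -1.94 and for TRAJ37 by -1.80 percentage points (adjusted exact permutation p = 0.0248 for each, with 22.2% of ends called lower). Between Tumour and MP neither end passed, with -1.30 and -0.98 points (adjusted exact permutation p = 0.156 and 0.132). Between MP and Naive the TRAJ37 end was lower by -0.82 points (adjusted exact permutation p = 0.0457, with 23.6% of ends called lower), and the TRAJ27 difference of -0.64 points did not pass (0.278). Without MP 1, 2, 3 or 5 or Naive 1, 3, 4 or 5 the TRAJ37 difference was -0.85 to -0.64 points, with an adjusted exact permutation p of 0.0762 to 0.0879.

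Most members were seen in few mice, and the shared ones held most of the Naive reads. Of 2810 TRAJ27 loops listed in Naive libraries, 204 were listed in all 5 and 1787 in 1 only, and the 204 held 70.0 ± 2.14% of the TRAJ27 reads of a library. Of 2563 TRAJ37 loops in Naive libraries, 156 were listed in all 5, with 77.9 ± 2.30% of the reads of that end. MP libraries listed 1012 TRAJ27 loops, 4 of them in all 5 with 18.4 ± 4.27% of reads, and 678 TRAJ37 loops, 12 of them in all 5 with 53.7 ± 11.8% of reads. Thus in MP the few loops seen in every mouse held a larger part of the TRAJ37 than of the TRAJ27 reads. This contrast was not tested.

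Tumours listed 159 TRAJ27 and 124 TRAJ37 loops, none of them in all 5 tumours. Loops listed in 1 tumour held 40.9 ± 31.2% of the TRAJ27 and 81.6 ± 23.5% of the TRAJ37 reads (SD, n = 5). Of the tumours' TRAJ27 loops, 66 were also listed in MP (41.5% of the Tumour and 6.52% of the MP loops) and 82 in Naive (51.6% and 2.92%), and 61 in neither. Of the TRAJ37 loops, 39 were also listed in MP (31.5% of the Tumour and 5.75% of the MP loops) and 62 in Naive (50% and 2.42%), and 58 in neither. MP and Naive libraries shared 535 TRAJ27 loops (52.9% of the MP and 19.0% of the Naive loops) and 379 TRAJ37 loops (55.9% and 14.8%). The same overlaps were not computed over all CDR3s, so these values do not tell whether the members differ from other loops. Possible reading errors bear on the Tumour counts: in Tumour 1 to 5, 16 of 39, 12 of 87, 9 of 17, 8 of 32 and 1 of 11 TRAJ27 loops differed by 1 substitution from another CDR3 of the same library that had 100 times the reads or more. For TRAJ37 they were 8 of 24, 11 of 53, 1 of 9, 14 of 30 and 10 of 16, and over all CDR3s of these libraries 28.8 to 69.0%. Whether these are errors was not tested.

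Reads were spread over many loops in Naive libraries and over few in tumours. Whole libraries also listed fewer CDR3s in tumours, with 934 to 2657 distinct CDR3s against 2216 to 13950 in MP and 14914 to 29559 in Naive. Fewer loops in tumours were thus not particular to these ends. How evenly reads were spread over all CDR3s was not measured. The effective number of loops, 2 to the power of the Shannon entropy of the reads of an end, was 2.85, 6.72, 6.48, 13.9 and 6.54 for TRAJ27 in Tumour libraries. It was 149.8, 37.9, 17.5, 30.0 and 150.8 in MP and 244.1, 160.1, 199.7, 235.3 and 227.7 in Naive libraries. The groups did not overlap, and each pair differed (adjusted exact permutation p = 0.0238 over 2 measures, 2 ends and 3 comparisons). MP 1 and MP 5 were the high MP libraries. With CDR3s of at least 10 reads alone, the TRAJ27 difference of MP from Naive was -36.4 loops in place of -136.2 and did not pass (adjusted exact permutation p = 0.180). For TRAJ37 the effective number was 7.42 ± 6.10 in Tumour, 48.9 ± 32.6 in MP and 89.2 ± 24.1 in Naive. Tumour was lower than MP (adjusted exact permutation p = 0.0272) and than Naive (0.0238), and MP against Naive did not pass (0.0762). Without MP 1 or MP 2 the TRAJ37 difference of Tumour from MP was -34.0 or -48.1 loops (adjusted exact permutation p = 0.0544 each), and without MP 5 that of MP from Naive was -49.99 (0.0423).

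The single most abundant loop held 80.6, 61.2, 25.0, 15.1 and 24.3% of the TRAJ27 reads of Tumour 1 to 5, and 14.4% on average in MP and 14.2% in Naive. The Tumour values lay 26.8 percentage points above MP (adjusted exact permutation p = 0.0317) and 27.1 above Naive (0.0272), and MP did not pass against Naive (0.833). For TRAJ37 the leading loop held 43.8 ± 22.8% in Tumour, 13.0 ± 4.58% in MP and 24.3 ± 4.86% in Naive. It weighed less in MP than in Naive, by -11.4 points (adjusted exact permutation p = 0.0317), more in Tumour than in MP (0.0272), and did not pass between Tumour and Naive (0.156). Without Tumour 1, 2, 3 or 5 or MP 1, 2 or 3 the TRAJ27 difference of Tumour from MP was 17.0 to 31.1 points, the smallest without Tumour 1, with an adjusted exact permutation p of 0.0635. The TRAJ37 difference of MP from Naive was -11.3 to -9.55 points without MP 1, 2, 4 or 5 or Naive 1, 2 or 3 (adjusted exact permutation p = 0.0571 to 0.0635), and that of Tumour from MP 29.9 to 30.7 points without MP 1 or MP 2 (0.0544).

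Next to the end, the residue that the germline segment encodes was kept to different degrees. TRAJ27 encodes N and TRAJ37 encodes T before the 7 residues used here. These were taken from general knowledge of the segments, and the peptide lists cannot tell a germline codon from an added one. Loops with the longer end NTNTGKLT held 2.25, 7.21, 4.74, 1.76 and 0.0704% of the TRAJ27 reads of Tumour 1 to 5, against 43.3 ± 8.69% in MP and 46.5 ± 2.25% in Naive. Every tumour lay far below every MP and Naive library, a difference of -40.1 percentage points from MP and of -43.3 from Naive (adjusted exact permutation p = 0.0357 for each, over 3 features, 2 ends and 3 comparisons). MP did not pass against Naive, at -3.19 points (adjusted exact permutation p = 0.543). Without 1 library other than Tumour 3 the Tumour differences were -42.3 to -36.5 points from MP and -44.3 to -42.5 from Naive, with adjusted exact permutation p-values of 0.0571 to 0.0714.

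For TRAJ37 the contrast lay between MP and Naive instead. Loops with the longer end TGNTGKLI held 46.5, 60.4, 41.2, 48.8 and 46.2% of the TRAJ37 reads in MP, against 74.8, 75.9, 73.7, 72.6 and 71.4% in Naive, with no overlap. The difference was -25.0 percentage points (adjusted exact permutation p = 0.0357), and -28.0 to -23.2 without any 1 library (0.0571 to 0.0714). In tumours the share ran between 5.79 and 80.3% and passed against neither MP (adjusted exact permutation p = 0.992) nor Naive (0.234). By distinct CDR3 the same share was 59.6 ± 5.29% in MP and 64.1 ± 1.74% in Naive, which did not pass (adjusted exact permutation p = 0.186).

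In place of the germline residue, other residues stood before the end. Of TRAJ27 reads, 36.7 ± 33.9% in Tumour, 13.2 ± 2.57% in MP and 17.7 ± 1.94% in Naive had S there, and 8.43 ± 9.99% in Tumour, 18.8 ± 2.84% in MP and 0.823 ± 0.128% in Naive had A. C stood there in 16.6 ± 19.6% in Tumour, 0.128 ± 0.188% in MP and 0.201 ± 0.194% in Naive. Of TRAJ37 reads, 28.7 ± 6.89% in MP and 16.9 ± 1.74% in Naive had A before the end, and 9.18 ± 2.14% in MP and 0.534 ± 0.0906% in Naive had I. These shares are given without a test.

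Net charge, K and R against D and E, was 1.14 ± 0.370 per TRAJ27 loop in Tumour and 0.841 on average in Naive, a difference of 0.295 (adjusted exact permutation p = 0.0357). Tumour 1, led by AASRS/TRAJ27 with its R, had the highest value at 1.79. Without 1 library other than Tumour 3 the difference ran from 0.131, without Tumour 1, to 0.355, with an adjusted exact permutation p of 0.0714. In MP the TRAJ27 net charge was 0.889 ± 0.108, and the Tumour difference of 0.247 from MP did not pass (adjusted exact permutation p = 0.234). For TRAJ37 it was 0.664 ± 0.489 in Tumour, 0.991 in MP and 0.978 in Naive. There Tumour passed against neither group (adjusted exact permutation p = 0.234 each). MP against Naive passed for neither end (0.531 each). Mean loop length, 11.5 residues in Tumour, 11.7 in MP and 11.6 in Naive for TRAJ27, and 11.96, 11.4 and 11.5 for TRAJ37, passed in no comparison when weighted by reads. Without Tumour 3 the TRAJ37 loops of Tumour were longer than those of MP by 0.795 and of Naive by 0.619 residues (adjusted exact permutation p = 0.0476 each).

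**Figure D2:**
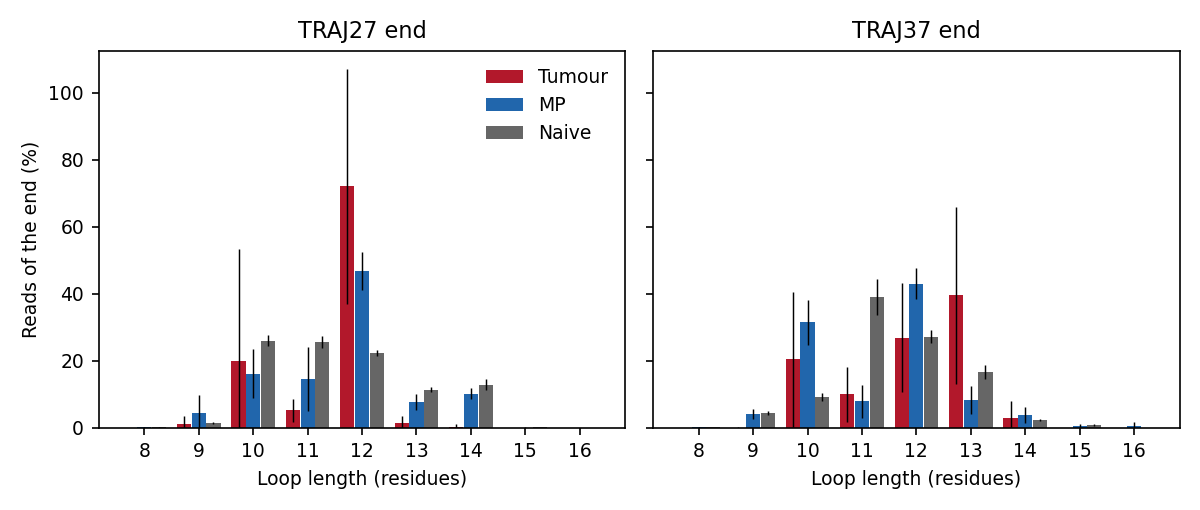
Share of the reads of each end (%) by loop length in residues, as the mean of 5 libraries per group with SD as error bars, cut at 0. Loops of 12 residues held 72.0 ± 35.1% of TRAJ27 reads in Tumour, 46.7 ± 5.71% in MP and 22.3 ± 0.935% in Naive, and loops of 10 residues held 31.5 ± 6.71% of TRAJ37 reads in MP and 9.08 ± 1.22% in Naive.

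The start of the loop, left by the TRAV segment, also varied. Loops that start AAS held 68.7 ± 35.3% of TRAJ27 reads in Tumour, 34.9 ± 3.54% in MP and 25.6 ± 2.31% in Naive, and loops that start AL held 18.6 ± 31.6% in Tumour, 20.0 ± 6.52% in MP and 40.0 ± 2.19% in Naive. For TRAJ37, AL starts held 40.0 ± 30.6% in Tumour, 32.9 ± 9.26% in MP and 57.0 ± 3.87% in Naive. The lists name no TRAV segment.

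Start, length and end met in 1 class of loops: AAS, then 2 residues, then the end, 12 residues in all. The class was picked after these values were seen, and it is described with no test. With the TRAJ27 end it held 90.9, 9.13, 87.4, 62.7 and 86.7% of the TRAJ27 reads of Tumour 1 to 5. It held 30.8, 26.4, 25.5, 28.5 and 31.1% in MP and 4.33, 4.53, 3.74, 4.90 and 5.24% in Naive libraries. Tumour 2, where ALHTNTGKLT led, was the low tumour, and MP and Naive libraries did not overlap. With the TRAJ37 end the class held 3.39 ± 4.58% of reads in Tumour, 26.1 ± 5.90% in MP and 8.78 ± 1.68% in Naive. Over all other ends, loops of 12 residues that start AAS took 2.33 ± 0.520% of library reads in Tumour, 6.01 ± 1.00% in MP and 8.82 ± 1.14% in Naive. The TRAJ27 class took 1.31 ± 1.22% of library reads in Tumour, 0.508 ± 0.0920% in MP and 0.126 ± 0.0128% in Naive. The class with the TRAJ52 end, which is among those other ends, also took more in MP than in Naive, at 0.0248 ± 0.0509% of library reads in Tumour, 0.426 ± 0.0986% in MP and 0.0253 ± 0.00491% in Naive. It held 4.75 to 8.44% of TRAJ52 reads in MP and 1.40 to 1.75% in Naive libraries, with no overlap. A higher share in MP was thus not particular to the TRAJ27 end.

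**Figure D3:**
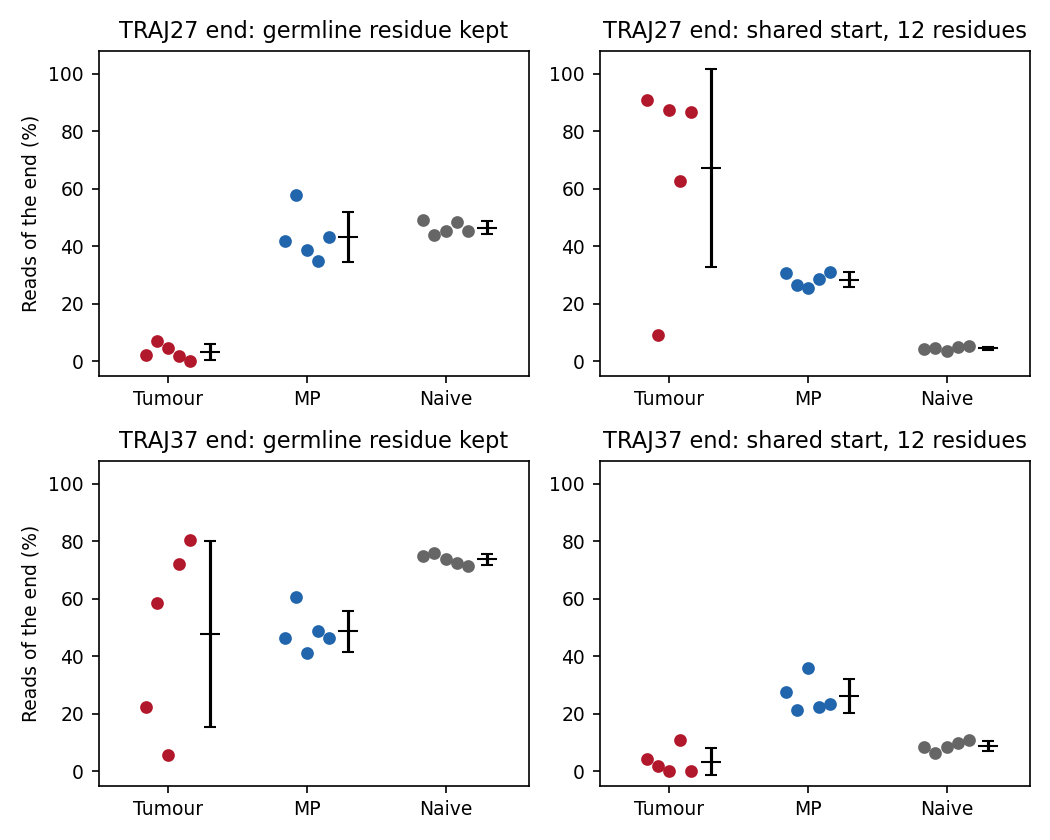
Share of the reads of each end (%) in loops that keep 1 more germline residue (left) and in the 12-residue loops that start AAS (right), for TRAJ27 (top) and TRAJ37 (bottom), 1 point per library with the mean and SD of each group (n = 5). TRAJ27 loops with the extra germline residue hold at most 7.21% in tumours, and the class on the right holds more of the TRAJ27 reads in MP (25.5 to 31.1%) than in Naive (3.74 to 5.24%).

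Per CDR3, few members were abundant enough to test between MP and Naive, and most that were called were lower in MP. Where 10 reads were required in 3 or more libraries, 267 of 3348 TRAJ27 loops were tested. By edgeR's quasi-likelihood test 15 were higher in MP (5.62% of those tested, with 12.6% over all CDR3s) and 106 lower (39.7%, with 48.1% over all CDR3s). Of 192 of 2920 TRAJ37 loops tested, 11 were higher (5.73%) and 101 lower (52.6%). The filter keeps a loop absent from one group only where it is frequent in the other, so these counts describe the loops tested and do not stand for all members. The median log2 fold change of those tested was -2.21 for TRAJ27 and -4.46 for TRAJ37, against -3.35 over all CDR3s tested. Of the 106 TRAJ27 loops lower in MP, 76 were listed in no MP library and 64 kept the residue N before the end. N was common there in any case, in 54.2 ± 1.12% (SD) of the distinct TRAJ27 loops of a Naive library. Whether the 64 exceed that share was not tested.

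The leading TRAJ27 loop of MP, AASGA/TRAJ27, took 0.244, 0.241, 0.208, 0.260 and 0.324% of MP reads, against 0.00384, 0.00456, 0.00331, 0.00416 and 0.00456% of Naive reads. It was listed in all 10 libraries at a steady level in each group, and the groups lay far apart. Its log2 fold change was 5.96 ± 0.49 (SE; edgeR adjusted p = 0.000189), a ratio of 62.5. AASKS/TRAJ27, at 0.0457, 0.0336, 0.0121, 0.132 and 0.0756% of MP reads, was listed in no Naive library. It was at least 119-fold higher in MP, measured against 3 reads per Naive library (edgeR adjusted p = 0.000770). AASLS/TRAJ27, at 0.0532 ± 0.0375% of MP reads and listed in 4 MP libraries, was likewise listed in no Naive library and at least 106-fold higher (edgeR adjusted p = 0.00831). Of the 15 TRAJ27 loops higher in MP, 7 belonged to the 12-residue AAS class, of which 18 were tested and 4 were lower. The count of 15 was 6 to 8 without MP 1, MP 5 or any 1 Naive library.

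In Naive libraries the TRAJ27 end was led by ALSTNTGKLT, at 0.0764, 0.0536, 0, 0 and 0.0338% of MP reads, against 0.395, 0.468, 0.478, 0.302 and 0.349% of Naive reads. The groups did not overlap, but 2 MP libraries did not list it and the log2 fold change of -3.60 ± 1.62 (SE) was not called (edgeR adjusted p = 0.0790). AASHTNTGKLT was absent from the MP lists, against 0.101 ± 0.0271% of Naive reads, at least 230-fold lower in MP (edgeR adjusted p = 0.000662). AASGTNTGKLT, which holds 1 residue less than the MP-high AASGA/TRAJ27, made up 0.000539 ± 0.000835% of MP reads, against 0.0803 ± 0.0170% of Naive reads, and fell by 7.16 ± 1.55 on the log2 scale (SE; edgeR adjusted p = 0.00294). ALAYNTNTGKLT and AHNTNTGKLT, both with N before the end, had log2 fold changes of -4.44 and -6.53 (edgeR adjusted p = 0.0436 and 0.0120), the first lost without any 1 Naive library (0.0679 to 0.0779). APYNTNTGKLT, at 0.0468 ± 0.0842% of MP and 0.00344 ± 0.00105% of Naive reads, and ATDTNTGKLT, at 0.0379 ± 0.0825% and 0.000714 ± 0.00106%, were not called, and each rested mainly on 1 MP library.

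The TRAJ37 end held the member with the highest mean share in Naive libraries. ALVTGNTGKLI took 0.00918, 0, 0, 0 and 0.00263% of MP reads, against 0.837, 1.04, 0.803, 0.642 and 0.648% of Naive reads. It alone made up 24.3% of the TRAJ37 reads of Naive libraries on average, and was listed in MP 1 and MP 5 only among MP libraries. Its log2 fold change was -8.37 ± 1.92 (SE; edgeR adjusted p = 0.00425). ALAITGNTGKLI, at 0.000994 ± 0.00206% of MP and 0.141 ± 0.0183% of Naive reads, fell by 7.12 on the log2 scale (edgeR adjusted p = 0.00704). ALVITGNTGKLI, at 0.0111 ± 0.0195% of MP and 0.131 ± 0.0242% of Naive reads, was not called (edgeR adjusted p = 0.0812). These 3 keep T before the end, unlike AASGA/TRAJ37, which fell to 0.000192 ± 0.000317% of MP reads, against 0.0993 ± 0.0346% of Naive reads (log2 fold change -8.86, edgeR adjusted p = 0.000697).

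Loops of 10 residues were the most abundant TRAJ37 loops of MP 2 to MP 5. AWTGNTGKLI took 0.0749, 0.152, 0.355, 0.208 and 0.0557% of MP reads and was listed in 1 Naive library, at 0.000314%. Its log2 fold change was 10.97 ± 1.44 (SE; edgeR adjusted p = 0.000662). ALIGNTGKLI took 0.134, 0.0783, 0.178, 0.163 and 0.158% of MP reads, against 0.00128, 0.00128, 0.000871, 0.00199 and 0.000471% of Naive reads. It rose by 6.90 ± 0.67 on the log2 scale (SE; edgeR adjusted p = 0.000381). Both were listed in every MP library, above all Naive libraries. AASWA/TRAJ37, at 0.124 ± 0.0379% of MP and 0.0151 ± 0.00718% of Naive reads, rose by 3.04 ± 0.61 on the log2 scale (SE; edgeR adjusted p = 0.00177). AASSA/TRAJ37, at 0.115 ± 0.0672% and 0.0490 ± 0.0140%, and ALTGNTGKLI, at 0.0846 ± 0.0292% and 0.175 ± 0.0300%, overlapped between the groups and were not called (edgeR adjusted p = 0.0891 and 0.0576).

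**Figure D4:**
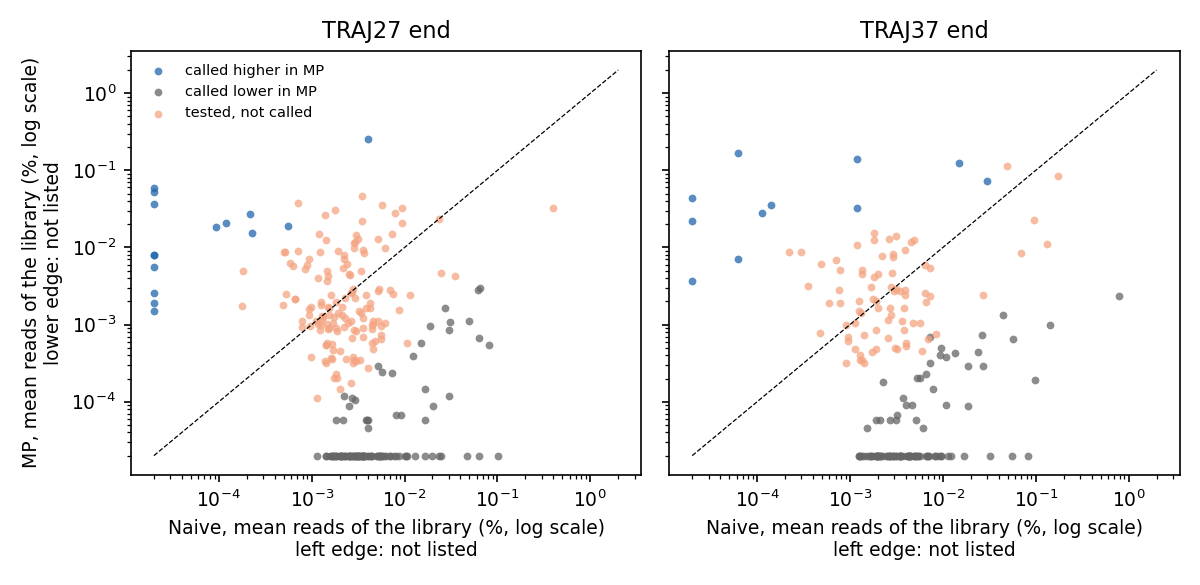
Mean share of library reads (%, log axes) of each member tested, MP (vertical) against Naive (horizontal), for TRAJ27 (left) and TRAJ37 (right). Members listed in no library of a group are drawn at the edge, the dashed line marks equal shares, and colours give the edgeR call. Loops lower in MP are the larger number for both ends (106 and 101, against 15 and 11 higher), and many of them lie at the lower edge.

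The same stem could be found with either end, but its abundance did not follow the stem. In all, 284 stems occurred with both ends, 8.48% of the TRAJ27 and 9.73% of the TRAJ37 stems. Within a group, 3 stems in Tumour, 47 in MP and 214 in Naive were listed with both. Across those stems the mean shares of the paired loops had a Spearman rho of 0.0998 in MP (n = 47) and 0.0779 in Naive (n = 214), given as a description, since the stems share libraries. The stem AASGA gave opposite calls with its 2 ends. With the TRAJ27 end it was 62.5 times higher in MP, and with the TRAJ37 end, as AASGA/TRAJ37, it was lower in MP, with 2 and 5 reads in MP 1 and MP 5, none in the other MP libraries, and 306 to 903 reads in Naive libraries.

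For most of the other stems with most reads, the loop with 1 end far outnumbered the other over all libraries, and the stem ALT in MP was an exception. ALVT with the TRAJ27 end, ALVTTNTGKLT, was listed in no Tumour or MP library and took 0.000918 ± 0.000958% of Naive reads, against 0.795 ± 0.165% for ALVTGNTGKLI in the same group. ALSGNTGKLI took 0.00284 ± 0.00509% of MP and 0.00395 ± 0.000825% of Naive reads, under the 0.398 ± 0.0758% of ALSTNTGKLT in Naive. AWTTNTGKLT was listed only in Naive 5, and AASRS/TRAJ37 only in MP 1. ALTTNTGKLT, at 0.0224 ± 0.0255% of MP reads, against 0.00350 ± 0.00183% of Naive reads, was not called (edgeR adjusted p = 0.193). Its partner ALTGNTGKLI took 0.0846 ± 0.0292% of MP reads, and in MP 4 and MP 5 the loops of this stem lay close together, at 0.0520 and 0.0474% with the TRAJ27 end and 0.0630 and 0.0661% with the TRAJ37 end.

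In tumours, the TRAJ27 loops called higher belonged to the 12-residue AAS class, which also held loops called lower. Against MP, 55 of 3348 TRAJ27 loops were tested, of which 5 were higher in Tumour (7.68% over all CDR3s tested) and 35 lower (66% over all CDR3s). Against Naive, 212 were tested, of which 7 were higher (3.38% over all CDR3s) and 187 lower (86.7% over all CDR3s). The 5 and the 7 were all of the class, of which 17 loops were tested against MP and 16 against Naive. Of the same class, 6 loops were called lower against MP and 8 against Naive. For each loop called higher the Tumour values overlapped those of the group compared, as no TRAJ27 loop was listed in all 5 tumours. Among those called lower against MP, the Tumour values of AASGA/TRAJ27 and AASKS/TRAJ27 lay below every MP library. Against MP, 1 to 3 were higher without any 1 Tumour library or without MP 2, 3, 4 or 5, and 7 to 20 were lower without MP 1, 2 or 5. Against Naive, 4 were higher without Tumour 2 and 3 without Tumour 4. A loop absent from the other group passes the filter only where at least 3 tumours hold it, and the counts are to be read with that. Likewise, a loop absent from tumours passes only where at least 3 libraries of the other group hold it. Of the 35 and 187 loops called lower, 32 and 179 were listed in no tumour. Their calls and p-values describe the loops tested and do not stand for all members. Of 9 TRAJ27 loops listed in at least 3 tumours, 8 belonged to the class.

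AASRS/TRAJ27 was the most abundant of them. It took 2.88, 0.0134, 0.191, 0.00489 and 0% of the reads of Tumour 1 to 5, with 0.0376, 0.0183, 0, 0.000348 and 0.0482% in MP and 0.000285, 0, 0, 0 and 0.000314% in Naive libraries. Tumour 1 alone set its Tumour mean, and it lay in 4 of 5 libraries of Tumour and of MP. It was called higher in Tumour than in Naive (log2 fold change 12.09 ± 3.18 SE, edgeR adjusted p = 0.00520) and in MP than in Naive (7.19 ± 2.05 SE, edgeR adjusted p = 0.0124), and not between Tumour and MP (4.88 ± 2.63 SE, edgeR adjusted p = 0.112).

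The other loops of the class that were called higher were listed in 3 or 4 tumours each. Of all loops of the class in tumours, 26 were listed in 1 tumour, 5 in 2, 5 in 3 and 3 in 4. AASES/TRAJ27 took 0.0983, 0.0489, 0.221, 0.0746 and 0% of Tumour reads, against 0.00110 ± 0.00207% of MP and 0.000939 ± 0.000717% of Naive reads. It was higher in Tumour than in MP (log2 fold change 6.30 ± 2.57 SE, edgeR adjusted p = 0.0406) and than in Naive (6.53 ± 1.80 SE, edgeR adjusted p = 0.00634). The call against MP was lost without Tumour 3 or MP 2, 3, 4 or 5 (edgeR adjusted p = 0.0628 to 0.0948). AASAC/TRAJ27 took 0, 0.0175, 0, 0.0935 and 0.476% of Tumour reads, and AASAT/TRAJ27 took 0, 0, 0.268, 0.0413 and 0.161%. Neither was listed in MP, and each was listed in 1 Naive library. In Tumour they stood at least 268-fold and 215-fold above the floor of 3 reads per MP library (edgeR adjusted p = 0.0183 and 0.0180). AASAS/TRAJ27 took 0.0154, 0.0254, 0.107, 0 and 0.375% of Tumour reads, against 0.0188 ± 0.0222% of MP and 0.000559 ± 0.000428% of Naive reads, and was called higher in Tumour against Naive only (edgeR adjusted p = 0.00605, and 0.335 against MP). AASAA/TRAJ27 and AASRA/TRAJ27 completed the calls against both groups and are named after their values were seen.

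AASGA/TRAJ27, the leading MP loop, was listed in Tumour 2 alone, at 0.00963%, which gave a log2 fold change of -7.04 ± 2.51 from MP (SE; edgeR adjusted p = 0.0219, and 0.0512 with TMM). The leading Naive loop, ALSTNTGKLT, was listed in no tumour, at least 1021-fold lower than in Naive (edgeR adjusted p = 1.38e-05). ALHTNTGKLT, at 1.91% of Tumour 2 reads, was listed in no other tumour and no Naive library and at 0.000399 ± 0.000591% in MP, and was too rare across libraries to be tested.

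The TRAJ37 loops tested in tumours were mostly lower, at shares near those over all CDR3s. Against MP, 36 of 2920 loops were tested and 27 were lower (75%, with 66% over all CDR3s). Against Naive 162 were tested and 147 were lower (90.7%, with 86.7% over all CDR3s). None was higher by edgeR in either comparison, with 0 against MP and 1 against Naive at an unadjusted p under 0.05, and none by DESeq2. Over all CDR3s 7.68% and 3.38% were called higher. Without Tumour 2, 4 or 5 the count higher than in Naive was 1, and without MP 1, 4 or 5 the count lower than in MP was 11 to 15. Of the 27 and 147 loops called lower, 25 and 139 were listed in no tumour. Such a loop passes the filter only through its reads in MP or Naive. These calls and p-values therefore describe the loops tested and do not stand for all members. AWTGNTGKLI, AASWA/TRAJ37 and AASSA/TRAJ37, which were among the 5 most abundant TRAJ37 loops of MP, were listed in no tumour and were at least 433-fold, 318-fold and 296-fold lower than in MP (edgeR adjusted p = 0.0103 for each). ALIGNTGKLI was listed in 3 tumours, at 0.0107, 0.00283, 0.0995, 0 and 0% of reads, and was called neither against MP (edgeR adjusted p = 0.244) nor against Naive (0.0537).

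Of the 5 TRAJ37 loops with the highest mean share in Tumour, 3 were those of single tumours. VLGERAGNTGKLI took 0.774% of Tumour 1 reads, AIEEWTGNTGKLI 0.236% of Tumour 5 reads and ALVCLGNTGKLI 0.135% of Tumour 2 reads. Each was listed in no other tumour and no MP library. The others were ALIGNTGKLI, listed in 3 tumours, and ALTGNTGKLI, listed in 2, at 0, 0.130, 0, 0.0269 and 0% of reads. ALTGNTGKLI was called neither against MP (edgeR adjusted p = 0.553) nor against Naive (0.263). VLGERAGNTGKLI was listed in all 5 Naive libraries at 0.00118 ± 0.000838% of reads, AIEEWTGNTGKLI in 3, and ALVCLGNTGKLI in none. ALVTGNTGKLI, the leading Naive loop, was listed in Tumour 1 alone, at 0.0727%, with a log2 fold change of -5.77 ± 2.58 from Naive (SE; edgeR adjusted p = 0.0549) that was not called. Without Tumour 1 it was listed in no tumour and was called lower (edgeR adjusted p = 9.75e-06), as it was with TMM (0.0322) and by DESeq2 (adjusted p = 0.00387).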

How the data were processed

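The authors deposited 1 list for each library, which pairs every CDR3 peptide with its count of reads, not normalized. Per the labels' protocols, RNA was extracted with Trizol and the libraries were made by iRepertoire with arm-PCR, a multiplex RT-PCR. How reads were aligned and CDR3s called, and whether errors were filtered or molecular identifiers used, is not given in the sources used here. Reads are not independent molecules, so floors cover counting error only. All 15 lists were used and 0 columns of values were left out.

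Members and lists were chosen with earlier results of these data known. Shares of reads and of distinct CDR3s, loop features and evenness were compared by exact two-sided permutation tests over the 252 splits of 5 against 5 libraries (smallest p 0.00794), with Benjamini-Hochberg adjustment, for shares over all 72 ends of 7 residues with a mean share of at least 0.1% of reads. Calls per CDR3 came from edgeR 4.0.16 (limma 3.58.1, R 4.3.3), quasi-likelihood test, total reads as library size without TMM, at least 10 reads in at least 3 libraries, adjusted p under 0.05 over all CDR3s, each pair of groups fitted alone; the scripts were tested on simulated data. Where a group did not list a loop, 3 reads per library served as floor (mean 0.000390% in Tumour, 0.000438% in MP and 0.000502% in Naive). Other software was matplotlib 3.10.9, pandas 2.3.3, scipy 1.17.1, numpy 2.4.6 and python 3.11.15.

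Named loops are, per end, the 5 with the highest mean share in each group, the 3 with the highest mean share among those called in each direction of each comparison, and the 6 stems with most reads that carry both ends. The labels say that the Naive and MP cells came from 5 mice and the tumours from 5 others of another age, and leave unsaid if a Naive and an MP library of 1 number share a mouse. Deviations of same-numbered MP and Naive libraries correlated at 0.0125 to 0.0470, and those of differently numbered ones at -0.0507 to 0.0339. The same-numbered values were thus all positive, and the others had either sign. The libraries were treated as unpaired, so tests of MP against Naive took as independent libraries that may share mice. Whether same numbers share a mouse was not tested. Every pair of libraries of a group differed by more than counting noise. The RefSeq table (GRCm38.p6) gave only names and order of segments; the germline ends were not checked against a sequence. The alternatives were TMM, DESeq2 1.42.0, filters of 50 reads and of 1 read in 2 libraries, CDR3s with at least 10 reads only, folding of CDR3s 1 substitution from one 100 times as abundant, an end of 8 residues, leaving out the most abundant member, weighting by distinct CDR3, the library number as a block, leaving out each library, and leaving out MP 1 and MP 5 together.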

Additional observations from a re-analysis of the deposited data

Results flagged for a closer look

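In groups of 5 libraries a value was singled out where the highest or lowest lay far from the other 4, by Dixon's criterion, which chance meets in about 1 in 20 groups. Of 51 groups of summary values 2 met it: the net charge of TRAJ27 loops in Tumour 1, 1.79, and the share of the leading TRAJ37 loop in MP 3, 20.8% of the reads of its end. Of 70 groups of named loops 29 met it, often because 1 library listed the loop and the others did not.

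Among Tumour libraries, Tumour 1 was high for AASRS/TRAJ27 (2.88% of reads), VLGERAGNTGKLI (0.774%), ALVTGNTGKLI (0.0727%), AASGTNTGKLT (0.0326%) and AASLS/TRAJ27 (0.0200%). Tumour 2 was high for ALHTNTGKLT (1.91%), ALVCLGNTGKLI (0.135%), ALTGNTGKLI (0.130%), ATDTNTGKLT (0.0601%) and AASGA/TRAJ27 (0.00963%). Tumour 3 was high for ALIGNTGKLI (0.0995%) and AASKS/TRAJ27 (0.00207%), and Tumour 5 for AASAC/TRAJ27 (0.476%), AASAS/TRAJ27 (0.375%) and AIEEWTGNTGKLI (0.236%).

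Among MP libraries, MP 1 was high for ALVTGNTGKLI (0.00918%), AASES/TRAJ27 (0.00476%) and AASRS/TRAJ37 (0.00102%), MP 2 for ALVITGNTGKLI (0.0456%) and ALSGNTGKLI (0.0117%), MP 3 for APYNTNTGKLT (0.195%), MP 4 for ATDTNTGKLT (0.185%), and MP 5 for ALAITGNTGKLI (0.00468%) and AHNTNTGKLT (0.00336%). Among Naive libraries, Naive 1 was high for AASAT/TRAJ27 (0.00114%), Naive 4 for AASAC/TRAJ27 (0.000362%) and Naive 5 for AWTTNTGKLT (0.000471%) and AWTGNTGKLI (0.000314%), while Naive 5 was low for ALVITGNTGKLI (0.0899%).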

How the results depend on the processing

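Depth limits the rare members: a loop not listed had fewer than 2 reads unless a filter removed it, and most members had too few reads to test. The counts of calls depended on the filter. Where 50 reads were required in 3 or more libraries, MP against Naive gave 7 higher and 33 lower of 58 TRAJ27 loops tested. For TRAJ37 24 of 44 were lower. Tumour against MP gave 12 of 22 TRAJ27 and 11 of 15 TRAJ37 loops lower, and Tumour against Naive 40 of 50 and 29 of 33. Where only 1 read in 2 libraries was required, MP against Naive gave 61 higher and 583 lower of 1215 TRAJ27 loops tested. For TRAJ37 37 were higher and 500 lower of 929. Under the same filter Tumour against MP gave 202 lower of 281 TRAJ27 loops, and 1 higher and 135 lower of 177 TRAJ37 loops. Tumour against Naive gave 11 higher and 969 lower of 1044 TRAJ27 loops, and 2 higher and 747 lower of 802 TRAJ37 loops. Fewer or more CDR3s entered these fits. TMM left 3 of 55 TRAJ27 loops higher in Tumour than in MP. Without MP 1 and MP 5 together, 6 of 212 TRAJ27 loops were higher in MP than in Naive. Tumour against MP then gave 1 higher and 0 lower of 14 TRAJ27 and 6 lower of 12 TRAJ37 loops. Shares over all CDR3s are not set beside these counts, so they describe only the loops tested.

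The library number as a block does not stand for shared mice in the labels, and with 5 pairs the smallest sign-flip p is 0.0625, so no adjusted value could pass. Sizes were the same: -1.01 (adjusted exact permutation p = 0.0849) and -1.71 (0.0849) for the TRAJ27 and TRAJ37 shares of reads between MP and Naive, -0.96 (0.167) and -2.67 (0.150) for TRAJ37 in Tumour against MP and Naive, and, for distinct CDR3s, -0.82 (0.145) for TRAJ37 between MP and Naive and -1.94 and -1.80 (0.161 each) between Tumour and Naive. Under the block, the longer germline ends gave -25.0, -40.1 and -43.3 and net charge 0.295 (adjusted exact permutation p = 0.281 each). The balance was -1.55 and -1.99 (adjusted exact permutation p = 0.0938 each). The leading loop gave -11.4, 26.8, 30.9 and 27.1 points under the block (adjusted exact permutation p = 0.0833, or 0.150 for 26.8). The effective number gave -136.2, -69.9, -41.5, -206.1 and -81.7 loops (adjusted exact permutation p = 0.0833 each). With the block in edgeR, Tumour against MP gave 2 higher and 1 lower of 55 TRAJ27 loops tested and 6 lower of 36 TRAJ37 loops. Deviations of same-numbered MP and Naive libraries correlated at 0.0125 to 0.0470, and those of differently numbered ones at -0.0507 to 0.0339.

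An end of 8 residues drops the loops that lost the germline residue. It turned the TRAJ27 share of Tumour against MP to -0.71 points (adjusted exact permutation p = 0.0190). It turned the balance of Tumour to 2.70 against MP and 1.78 against Naive (adjusted exact permutation p = 0.294 each). It made the TRAJ27 share lower in Tumour than in Naive (-1.22, adjusted exact permutation p = 0.0175). It also made the balance of MP against Naive pass (-0.93, adjusted exact permutation p = 0.0238). Without the leading member the TRAJ27 share was lower in Tumour than in Naive (-1.45, adjusted exact permutation p = 0.0248). By distinct CDR3s instead of reads, TRAJ27 loops were shorter in MP than in Naive by -0.11 residues, with the sign of the read-weighted difference turned. TRAJ37 loops were shorter by -0.57 (adjusted exact permutation p = 0.0286 for either end). TRAJ27 loops were shorter in Tumour by -0.35 than in MP (adjusted exact permutation p = 0.0476) and by -0.46 than in Naive (0.0286). The germline share of TRAJ37 differed by -4.52 points between MP and Naive (adjusted exact permutation p = 0.186). Net charge of TRAJ27 loops differed by 0.206 between Tumour and Naive (adjusted exact permutation p = 0.0893). With CDR3s of at least 10 reads only, the distinct TRAJ37 share between MP and Naive no longer passed (-0.82, adjusted exact permutation p = 0.0847). Nor did the effective number of TRAJ27 between MP and Naive (-36.4, adjusted exact permutation p = 0.180). The leading TRAJ27 loop in Tumour against Naive did not pass either (24.0, adjusted exact permutation p = 0.0714). The balance (-0.52, adjusted exact permutation p = 0.0397) and TRAJ27 length (0.25, 0.0286) of MP against Naive did pass. Folding near neighbours left -0.65 (adjusted exact permutation p = 0.102) for the distinct TRAJ37 share. The causes were not tested.

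Without 1 library at a time, values ran over these ranges. The TRAJ37 share of reads in Tumour against Naive was -2.79 to -2.57, and the distinct TRAJ37 share of MP against Naive -0.99 to -0.64. The germline shares were -42.3 to -36.5 and -44.3 to -42.5 (TRAJ27, Tumour against MP and Naive) and -28.0 to -23.2 (TRAJ37, MP against Naive). Net charge was 0.131 to 0.355, and TRAJ37 length 0.443 to 0.795 and 0.267 to 0.619 in Tumour against MP and Naive. The leading loop was 17.0 to 33.4 (TRAJ27, Tumour against MP), -13.3 to -9.55 (TRAJ37, MP against Naive) and 24.0 to 37.4 (TRAJ37, Tumour against MP). The effective number of TRAJ37 was -49.4 to -31.7 in Tumour against MP and -49.99 to -32.3 in MP against Naive, and the balance -1.90 to -1.35 in Tumour against MP and -0.55 to -0.32 in MP against Naive. Calls ran from 6 to 16 (TRAJ27 higher in MP than Naive), 1 to 4 and 7 to 41 (TRAJ27 higher and lower in Tumour than MP), 11 to 29 (TRAJ37 lower in Tumour than MP), 3 to 7 (TRAJ27 higher in Tumour than Naive) and 0 to 1 (TRAJ37 higher in Tumour than Naive). Over all CDR3s, 517 to 739 were higher in MP than in Naive. In Tumour 81 to 122 were higher and 572 to 1210 lower than in MP, and 106 to 146 were higher than in Naive.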

Other observations

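The core was used almost only with 3 residues before it. Of 3019 distinct CDR3s that end in NTGKLI, 2920 had G before the core, the TRAJ37 end, and the next most frequent residue, S, stood in 37, at 0.000134% of Tumour, 0.0203% of MP and 0.00587% of Naive reads on average. Of 6160 that end in NTGKLT, 3348 had T, the TRAJ27 end, and 2255 had A, the TRAJ52 end. The next, P, stood in 156, at 0.0333 ± 0.0608% of Tumour, 0.449 ± 0.130% of MP and 0.315 ± 0.0669% of Naive reads (SD, n = 5 each). A peptide does not show which segment a trimmed loop came from, so the ends with P could not be assigned.

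Members listed in every library of a group held 91.0 ± 1.52% of the TRAJ52 reads in MP and 70.3 ± 1.74% in Naive, and none of the 96 TRAJ52 loops of tumours was listed in all 5. Set beside 18.4 ± 4.27% in MP and 70.0 ± 2.14% in Naive for TRAJ27, and 53.7 ± 11.8% and 77.9 ± 2.30% for TRAJ37, the 3 ends differed more in MP than in Naive. This difference was not tested.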
